A study of Mus musculus with 6 samples.

Results

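The genes described here are 32 genes of cholesterol and fatty acid synthesis, picked by symbol from the 32285 genes of the deposited matrices, and all 32 were present. They comprise 18 enzymes of sterol synthesis, 7 regulators of the pathway or carriers of sterols (Srebf1, Srebf2, Scap, Insig1, Insig2, Stard4 and Mylip) and 7 genes of fatty acid synthesis (Acly, Acaca, Fasn, Scd1, Scd2, Elovl5 and Elovl6). RNA was counted as UMIs (unique molecular identifiers, 1 per captured transcript) in single nuclei from mouse cortex, taken by sorting for absence of NeuN, a protein of neuronal nuclei. There were 3 groups of 2 libraries, each with the replicate numbers 2 and 3, all from mice 7.5 months old. The first group, 5xFAD;P522R, carries the P522R variant of phospholipase C-γ2, and the second, 5xFAD;M28L, carries the M28L variant of the same protein. The third group is 5xFAD alone. All 3 groups thus share the 5xFAD transgenes, which give amyloid plaques, and no library without 5xFAD was analysed here. Zygosity of the variants is not given in the sources used here. Male and female nuclei were combined in each library, and the labels do not say that replicates 2 and 3 are separate sets of animals, so p-values measure only the spread between libraries. The variants are P522R and M28L below.

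Cholesterol is built from acetyl-CoA by way of mevalonate, the isoprenoid farnesyl diphosphate, squalene and lanosterol. The transcription factor SREBP2 (gene Srebf2) switches on these enzymes when membrane sterol is low: SCAP escorts it out of the endoplasmic reticulum, and INSIG proteins hold both back when sterol is plentiful. SREBP1 (gene Srebf1) acts more on fatty acid synthesis, where acetyl-CoA carboxylase (Acaca) makes malonyl-CoA, fatty acid synthase (Fasn) builds the chain, and SCD and ELOVL enzymes desaturate and elongate it. In the brain, cholesterol is made locally, by oligodendrocytes for myelin and by astrocytes for supply to other cells, while microglia take up and clear much lipid from debris.

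SREBP factors act together with the factor NF-Y, whose box reads CCAAT on either strand. Promoters are shown for the enzymes Hmgcs1, Cyp51 and Msmo1 and the factor Srebf2, picked after their values were seen. Cyp51, Msmo1 and Srebf2 passed a test between groups or of its difference between cell types. Hmgcs1 stands at the head of the pathway and was the only gene whose window matched the letters searched for the sterol regulatory element, TCACNCCAC. Elovl6, which also passed such a test, is not shown, and its window holds none of the 4 motifs searched. Each sequence is the 250 bases before the transcript start, 5′ to 3′ on the gene's strand, from RefSeq on build GRCm38.p6. Capitals mark NF-Y boxes and, in Hmgcs1, the match to the sterol regulatory element. The regions are chr13:119690101-119690350 (plus strand) for Hmgcs1, chr5:4104698-4104947 (minus) for Cyp51, chr8:64733579-64733828 (minus) for Msmo1 and chr15:82147019-82147268 (plus) for Srebf2.
Hmgcs1: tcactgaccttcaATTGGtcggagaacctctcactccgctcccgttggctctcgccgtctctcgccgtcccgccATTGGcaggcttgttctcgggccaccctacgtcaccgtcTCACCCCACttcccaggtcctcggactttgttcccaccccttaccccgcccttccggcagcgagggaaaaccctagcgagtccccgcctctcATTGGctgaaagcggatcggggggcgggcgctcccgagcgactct
Cyp51: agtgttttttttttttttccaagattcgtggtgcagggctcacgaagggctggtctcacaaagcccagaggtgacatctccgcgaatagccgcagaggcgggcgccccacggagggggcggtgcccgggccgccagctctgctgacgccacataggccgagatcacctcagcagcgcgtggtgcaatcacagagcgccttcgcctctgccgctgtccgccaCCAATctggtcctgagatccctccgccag
Msmo1: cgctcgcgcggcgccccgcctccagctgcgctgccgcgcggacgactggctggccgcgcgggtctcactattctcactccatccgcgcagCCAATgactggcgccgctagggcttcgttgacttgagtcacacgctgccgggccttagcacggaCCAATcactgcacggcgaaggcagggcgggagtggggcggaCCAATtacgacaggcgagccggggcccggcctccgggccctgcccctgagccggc
Srebf2: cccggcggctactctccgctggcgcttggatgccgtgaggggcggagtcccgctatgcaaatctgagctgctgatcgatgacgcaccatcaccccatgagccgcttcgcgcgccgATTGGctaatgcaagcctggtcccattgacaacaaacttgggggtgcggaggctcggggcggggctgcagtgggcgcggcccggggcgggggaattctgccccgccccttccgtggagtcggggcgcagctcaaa
The 250 bases shown hold 3 NF-Y boxes each for Hmgcs1 and Msmo1, and 1 each for Cyp51 and Srebf2. The sterol regulatory element of Hmgcs1 begins 137 bases before the start. A window of 300 bases (250 before the start and 50 after it) was found for 26 of the 32 genes. In it the NF-Y box CCAAT occurred in 22 of 26 genes (84.6%), against 41.1% of all 27025 genes with a window. The GC box GGGCGG, to which SP1 binds, occurred in 21 of 26 (80.8%), against 38.2% of all genes. The E-box CACGTG occurred in 6 of 26 (23.1%), against 8.09%, and the sterol regulatory element TCACNCCAC in 1 of 26 (3.85%), against 1.44%. Both strands were searched, for these letters only, so other forms of the sterol regulatory element would be missed. No motif contains another, but neighbouring matches can share bases, and a match of letters is not a measured binding site. No promoter was shown or searched for Fdps, Fdft1, Sqle, Stard4, Scd1 or Scd2.

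Of 62687 barcodes, 62651 nuclei passed the filters, and 57452 lay in clusters named from markers after 2566 called doublets were removed. Total UMIs per library were 53326947 to 72288942. Microglia-like nuclei numbered 8150 (915 to 1722 per library), oligodendrocyte-like 32168 (4039 to 6614), nuclei like oligodendrocyte precursor cells (OPC) 6101 (742 to 1687) and astrocyte-like 3906 (161 to 1380). The fewest astrocyte-like nuclei were in the P522R libraries. Each type had its own marker list at the highest summed level: the 12 microglial markers summed to 11042 to 14201 CPM (counts per 1000000 UMIs) in microglia-like nuclei and at most 202.4 CPM in the other 3 types. Markers of other types were present too: astrocyte markers summed to 6255 to 6575 CPM in OPC-like nuclei, whose own list summed to 22769.6 to 24318 CPM, and oligodendrocyte markers reached 3338 CPM in microglia-like nuclei of P522R replicate 3. The names rest on markers alone, and the types are called microglia, oligodendrocytes, OPCs and astrocytes below. Of 62162 barcode sequences, 503 occurred in more than 1 library. The 32 genes were kept out of the genes used for clustering. Levels of single genes are in CPM, from UMIs summed per library and type and scaled by the trimmed mean of M values (TMM) within each fit. A library's level can thus differ slightly between the comparisons of types, of groups and of states. Summed marker levels are CPM of the total UMIs of a library and type, without TMM scaling. Fold changes are log2 values ± standard error (SE), estimated with edgeR's quasi-likelihood test with Benjamini-Hochberg adjustment over all genes tested, and a gene is called at an adjusted p of at most 0.05.

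Synthesis genes were highest in astrocytes and lowest in microglia. The median over the 6 libraries was highest in astrocytes for 25 of the 32 genes, against 23.8% of all 15909 genes tested. In 21 of them every astrocyte library lay above every library of the other types, against 10.9% of all genes. Microglia had the lowest median for 26 of 32 (32.5% of all genes), and in 8 of them every microglial library lay below all others (10.1% of all genes). Among the 18 enzymes of sterol synthesis, 17 were highest in astrocytes and the same 17 were lowest in microglia, the exception being Ebp, a sterol isomerase.

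The enzymes that stood out in astrocytes span the sterol pathway. Hmgcs1, the cytosolic HMG-CoA synthase at the head of the mevalonate pathway, had a lowest, median and highest library of 65.5, 81.8 and 89.3 CPM in astrocytes. The same 3 values were 18.3, 23.3 and 27.7 CPM in oligodendrocytes, 12.4, 15.7 and 16.7 CPM in OPCs and 10.8, 15 and 21.5 CPM in microglia. The astrocyte libraries did not overlap with any other type, whereas OPC and microglial libraries overlapped. The log2 fold change of astrocytes over oligodendrocytes was 1.83 ± 0.08 (adjusted p = 8.00e-16). Mvd, the decarboxylase that ends the mevalonate segment, had 14.5, 16.5 and 19.1 CPM in astrocytes against 2.84, 4.30 and 5.68 CPM in OPCs, the next type (2.03 ± 0.16, adjusted p = 7.28e-11). Msmo1, a methylsterol oxidase that works after lanosterol, had 128, 167 and 209 CPM in astrocytes against 31.6, 40.4 and 52.3 CPM in oligodendrocytes (2.02 ± 0.11, adjusted p = 3.71e-14). Nsdhl, which acts at the step after Msmo1, had 60.4, 67.4 and 96.2 CPM in astrocytes against 17.7, 19.2 and 21.4 CPM in oligodendrocytes (1.91 ± 0.08, adjusted p = 1.33e-15). For each of these 4 enzymes the lowest astrocyte library was above the highest library of the next type.

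Regulators and fatty acid genes were spread more widely. Mylip, a ubiquitin ligase that marks lipoprotein receptors for degradation, was far higher in microglia than in the other types, with 299.5, 317 and 374 CPM there against 9.77, 10.7 and 15.9 CPM in astrocytes, the next type (4.81 ± 0.14, adjusted p = 8.40e-19). Scap had 49.8, 57.8 and 61.6 CPM in oligodendrocytes against 32.9, 39 and 42.7 CPM in astrocytes (0.54 ± 0.06, adjusted p = 4.67e-08). Acaca had 532, 613 and 687 CPM in oligodendrocytes against 232, 396 and 487 CPM in microglia (0.70 ± 0.11, adjusted p = 6.25e-06). Among the fatty acid genes it was thus 1 of 2 that did not have their lowest median in microglia, with Acly, the ATP-citrate lyase. Elovl6, an elongase of saturated chains, had 219, 235 and 252 CPM in OPCs against 105, 146 and 161 CPM in oligodendrocytes (0.79 ± 0.15, adjusted p = 6.55e-05). In each of these 4 genes the libraries of the leading type lay above all others. Neighbouring types were not separated by the test for Insig2 (microglia over oligodendrocytes, adjusted p = 0.121), Acly (astrocytes over microglia, adjusted p = 0.652) and Elovl5, an elongase of polyunsaturated chains (astrocytes over oligodendrocytes, adjusted p = 0.696).

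Counted over the pairs of types, 2 of 32 genes were called higher and 28 lower in microglia than in oligodendrocytes, where 36.4% and 39.4% of all genes were called in these directions. Against OPCs, 5 were higher and 21 lower in microglia (40% and 40.2% of all genes). Against astrocytes, 3 were higher and 27 lower in microglia (37.7% and 39.1%). Oligodendrocytes had 19 genes higher and 5 lower than OPCs (38.3% and 38%), and 4 higher and 25 lower than astrocytes (36.1% and 37.5%). OPCs had 1 gene higher and 27 lower than astrocytes (32.5% and 33.7%).

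**Figure D1:**
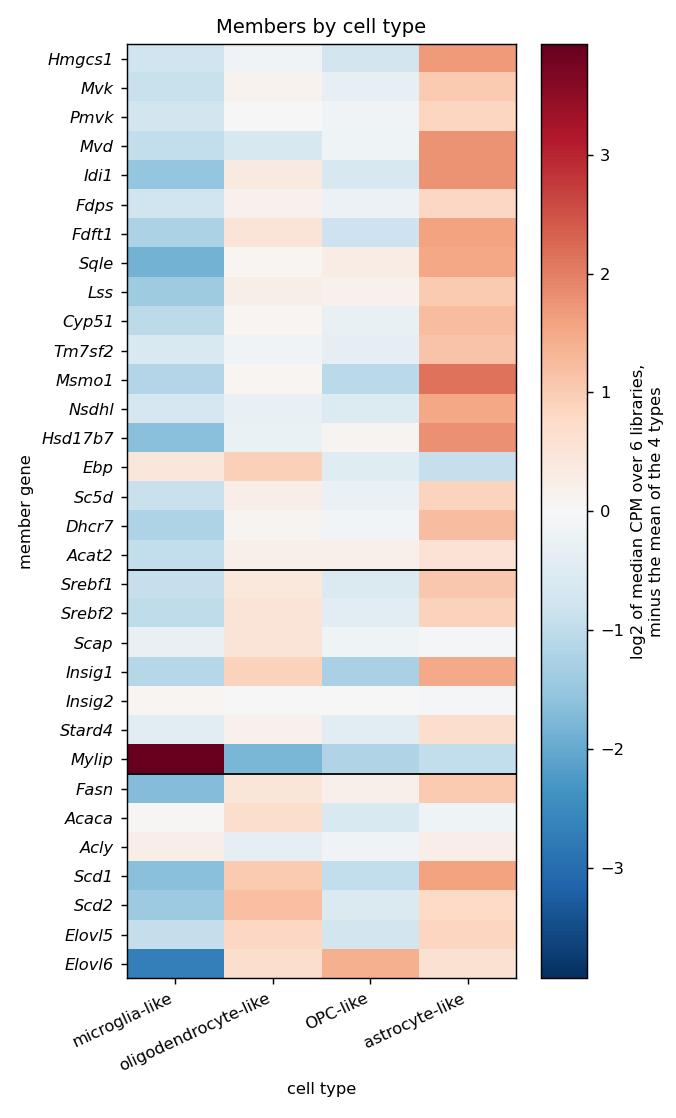
Level of each of the 32 genes (rows, grouped by role) in 4 cell types (columns), as the log2 of the median CPM over 6 libraries minus the mean of the 4 types. The astrocyte column is highest for 25 of 32 genes and the microglia column lowest for 26 of 32, with Mylip highest in microglia.

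Between the variants, microglia of P522R had more RNA of most synthesis genes than those of M28L, but no single gene was called. The log2 fold change of P522R over M28L was above 0 for 28 of the 32 genes, with a median of 0.63, against 49.9% of all 13784 genes tested and a median of -0.0011 over them. Without P522R replicate 3 the median was 0.39. Of the sterol enzymes 17 of 18 were above 0 (median 0.66), of the fatty acid genes 7 of 7 (median 0.60) and of the regulators and carriers 4 of 7 (median 0.05). The number called was 0 of 32, and 0.00725% of all genes were called. At an unadjusted p of at most 0.05 in edgeR, 10 genes were higher and 1 was lower in P522R, where 7.73% and 5.36% of all genes were. Both P522R libraries lay above both M28L libraries in 22 of 32 genes (22.8% of all genes) and below them in 2 (22.5%). That cholesterol genes run this way in microglia was known when the list was drawn up.

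By role, the head of the sterol pathway is Hmgcs1, which had 25.9 and 21.9 CPM in the P522R libraries, 15.3 and 12.7 CPM in the M28L libraries and 15.4 and 20.4 CPM in the 5xFAD libraries. Lss, lanosterol synthase, which closes the sterol rings, had 6.35 and 8.70 CPM in the P522R libraries, 3.50 and 3.60 CPM in the M28L libraries and 3.34 and 5.38 CPM in the 5xFAD libraries. Cyp51, the lanosterol demethylase, had 17.8 and 20.9 CPM in the P522R libraries, 9.19 and 10.2 CPM in the M28L libraries and 11.8 and 19.9 CPM in the 5xFAD libraries. In all 3 enzymes both P522R libraries lay above both M28L libraries, and for Hmgcs1 and Lss above both 5xFAD libraries too. Msmo1 had 24.4 and 26.9 CPM in the P522R libraries, 13.1 and 13.5 CPM in the M28L libraries and 18 and 23.5 CPM in the 5xFAD libraries, and Sc5d, a sterol desaturase near the end of the pathway, had 10.4 and 13.2 CPM in the P522R libraries, 7.65 and 7.40 CPM in the M28L libraries and 11.6 and 14.8 CPM in the 5xFAD libraries. For both, P522R lay above M28L, and for Sc5d the 5xFAD libraries overlapped with those of P522R. Log2 fold changes of P522R over M28L were 0.76 ± 0.21 for Hmgcs1, 1.10 ± 0.34 for Lss, 1.00 ± 0.26 for Cyp51, 0.95 ± 0.18 for Msmo1 and 0.67 ± 0.24 for Sc5d. Their adjusted p-values were 0.199, 0.245, 0.194, 0.168 and 0.303. The UMIs behind Msmo1 were 96 and 204 in P522R, 60 and 71 in M28L and 70 and 170 in 5xFAD.

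Among the regulators, Srebf2 had 76.8 and 92.1 CPM in the P522R libraries, 43.1 and 43.4 CPM in the M28L libraries and 38.5 and 66.1 CPM in the 5xFAD libraries. The P522R libraries were the highest 2 of the 6, and 5xFAD replicate 2 was the lowest. Insig1, whose own gene is a target of SREBP, had 11.2 and 17.3 CPM in the P522R libraries, 8.53 and 8.92 CPM in the M28L libraries and 8.99 and 13.5 CPM in the 5xFAD libraries. Mylip ran the other way, with 384 and 364 CPM in the P522R libraries, 441 and 439 CPM in the M28L libraries and 378 and 372 CPM in the 5xFAD libraries, so that the M28L libraries were the highest. Fold changes of P522R over M28L were 0.97 ± 0.22 for Srebf2 (adjusted p = 0.173), 0.73 ± 0.29 for Insig1 (adjusted p = 0.335) and -0.24 ± 0.08 for Mylip (adjusted p = 0.306). Without P522R replicate 3 that of Insig1 was 0.36. The other genes with a fold change below 0 were Tm7sf2, a sterol reductase (-0.69), Insig2 (-0.08) and Scap (-0.01).

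Of the fatty acid genes, Elovl6 had 21.1 and 35.7 CPM in the P522R libraries, 15.5 and 13.8 CPM in the M28L libraries and 17.5 and 14.2 CPM in the 5xFAD libraries. Scd2, a stearoyl-CoA desaturase, had 78 and 114 CPM in the P522R libraries, 64.7 and 62 CPM in the M28L libraries and 70.1 and 65.1 CPM in the 5xFAD libraries. In both genes P522R replicate 3 stood well above the other 5 libraries. Fold changes of P522R over M28L were 0.98 ± 0.26 for Elovl6 (adjusted p = 0.195) and 0.60 ± 0.17 for Scd2 (adjusted p = 0.217). Without P522R replicate 3 they were 0.53 for Elovl6 and 0.31 for Scd2. Scd1 was at 0.87 to 3.56 CPM and Hsd17b7, a sterol ketoreductase, at 0.66 to 3.29 CPM per library, each from 3 to 27 UMIs, so that their fold changes of 1.04 and 1.12 had little depth behind them. The remaining 17 genes had fold changes between 0.05 (Srebf1) and 0.77 (Fasn), with adjusted p-values from 0.345 to 0.963.

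**Figure D2:**
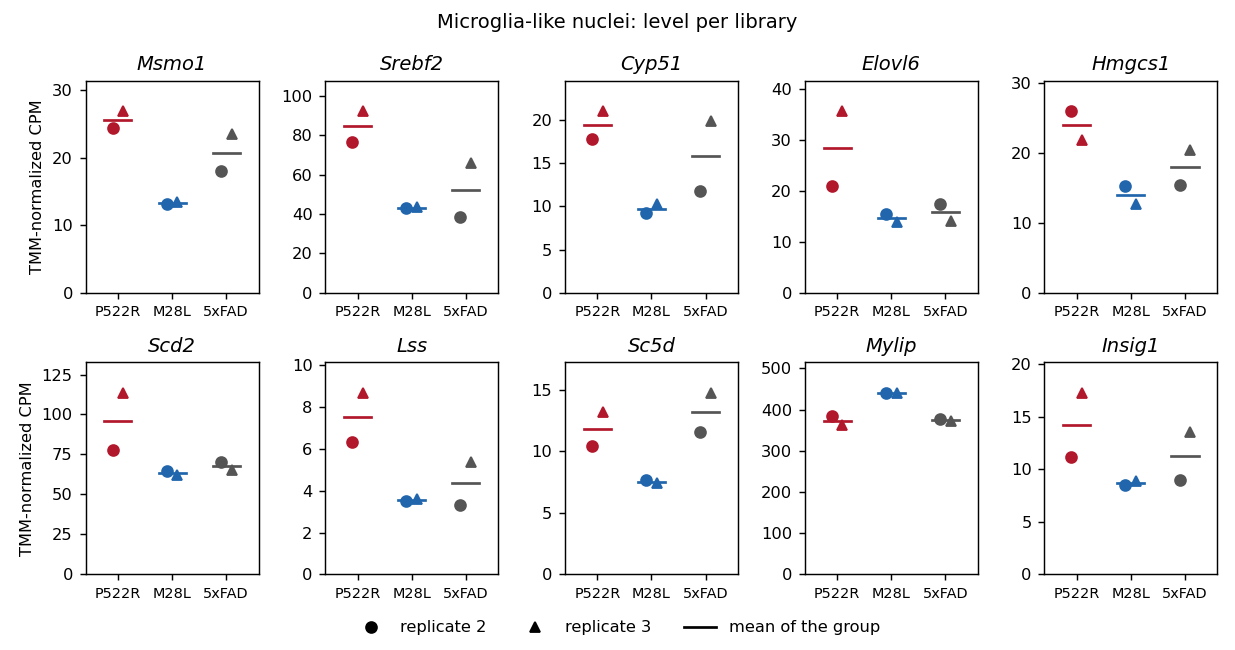
Level (CPM, axis from 0) of 10 genes in microglia for each library of P522R, M28L and 5xFAD, with circles for replicate 2, triangles for replicate 3 and bars for the group mean. The P522R points lie above the M28L points in every panel but that of Mylip, where they lie below.

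Several other measures moved with these groups in microglia. The summed level of 12 oligodendrocyte markers was 1725 to 3338 CPM in P522R, 954.1 to 1106 CPM in M28L and 946.4 to 1183 CPM in 5xFAD, with all 12 markers detected in every library. A sub-cluster of microglia led by oligodendrocyte genes held 4.92% and 12.5% of microglia in the P522R libraries, 1.31% and 1.19% in M28L and 1.61% and 2.03% in 5xFAD. Its nuclei had a median of 2.31 times the UMIs of the median microglial nucleus of their library. Whether they were doublets was not tested. With that sub-cluster left out, a choice made after seeing the data, the median fold change of P522R over M28L was 0.42, and 26 of 32 genes were above 0, against 48.7% of all genes. In that subset both P522R libraries lay above both M28L libraries in 21 of 32 genes, where 20.1% of all genes did. Elovl6 then had 16.2 and 17.9 CPM in P522R and 12.6 and 13.2 CPM in M28L (0.41 ± 0.21), and Scd2 65.9 and 70.0 CPM in P522R and 61.8 and 60.1 CPM in M28L (0.16 ± 0.12). Srebf2 was at 0.82 ± 0.21 and Msmo1 at 0.90 ± 0.19 in that subset. The 12 astrocyte markers summed to 468.7 to 506.5 CPM in P522R, 780.6 to 829.7 CPM in M28L and 744.1 to 744.5 CPM in 5xFAD, with all 12 detected. The 8 endothelial markers summed to 166.5 to 243.8 CPM in P522R, 56.2 to 62.4 CPM in M28L and 102.9 to 157.3 CPM in 5xFAD. The 12 microglial markers themselves summed to 11042 to 11557 CPM in P522R, 13184 to 14201 CPM in M28L and 12446 to 12627 CPM in 5xFAD, and 8 markers of border macrophages to 117.6 to 134.1 CPM in P522R, 170.9 to 185.7 CPM in M28L and 122.3 to 176.4 CPM in 5xFAD. The part of the astrocyte, endothelial, microglial and macrophage marker levels in the result was not tested. The disease-associated-like state described below held 53.4% and 49.4% of microglia in P522R, 28.9% and 32% in M28L and 20.3% and 54.6% in 5xFAD. Fits within each state are given below, and the part of this share in the result was not otherwise tested. Of microglia with a sex call, 75.1% and 71.9% were Xist-positive in P522R, 48.0% and 62.1% in M28L and 46.4% and 69.2% in 5xFAD. The part of sex in the result was tested only as the fits of each sex given under the processing alternatives.

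Set against 5xFAD, microglia of M28L had fold changes below 0 for 25 of 32 genes (median -0.31), where 49.7% of all genes were above 0, and 0 were called (0.00725% of all genes). Both M28L libraries lay below both 5xFAD libraries in 11 genes (16.3% of all genes) and above them in 1 (18.6%). The smallest unadjusted p-values were those of Msmo1 (-0.66 ± 0.19), Sc5d (-0.83 ± 0.23), Cyp51 (-0.74 ± 0.27) and Mylip (0.23 ± 0.08), each with an adjusted p of 0.893. Microglia of P522R had fold changes above 0 over 5xFAD for 25 of 32 genes (median 0.25), where 50.1% of all genes were above 0, and 0 were called, as of all genes (0%). Both P522R libraries lay above both 5xFAD libraries in 11 genes (21.6% of all genes) and below them in 1 (20.8%). The 2 contrasts with 5xFAD share its libraries, and the 5xFAD libraries were far apart: Acaca was at 278.9 CPM in replicate 2 and 580.3 CPM in replicate 3, whereas the P522R libraries had 518 and 549 CPM and the M28L libraries 365 and 425 CPM, all within that span. Without 5xFAD replicate 3 the median of P522R over 5xFAD was 0.51 and that of M28L over 5xFAD was -0.15.

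Microglia were split by sub-clustering into 3289 disease-associated-like nuclei, named for a state of microglia at plaques that expresses genes such as Itgax and Cst7, and 3159 homeostatic-like nuclei. Disease-associated-like nuclei made up 53.4% and 49.4% of microglia in P522R, 28.9% and 32% in M28L and 20.3% and 54.6% in 5xFAD (replicates 2 and 3). Within libraries, 13 of the 32 synthesis genes were higher in the disease-associated-like state. Of the 32 genes, 23 had enough counts to be tested, and of these 13 were called higher, 0 lower and 10 neither. Over all 10819 genes tested, 16.2% were called higher and 15.7% lower. The states were cut from the same nuclei that are compared, with the 32 genes left out, so the p-values describe this split and are not an independent test of it. Not tested for low counts were Mvk, Mvd, Idi1, Sqle, Lss, Tm7sf2, Hsd17b7, Stard4 and Scd1.

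The largest difference between states was that of Acaca, the carboxylase that commits acetyl-CoA to fatty acids, with 809.6 and 796 CPM in disease-associated-like nuclei of the P522R libraries, 668 and 760.5 CPM in those of M28L and 903 and 823 CPM in those of 5xFAD, against 93.5 and 104, 133 and 103, and 74 and 120.5 CPM in homeostatic-like nuclei of the same groups. The lowest disease-associated-like library, at 668.3 CPM, was far above the highest homeostatic-like one, at 132.8 CPM (log2 fold change 2.92 ± 0.09, adjusted p = 8.84e-22). Srebf2 had 99.8 and 103 CPM in disease-associated-like nuclei of the P522R libraries, 67.2 and 58.7 CPM in those of M28L and 75.3 and 83.6 CPM in those of 5xFAD, against 31.8 and 37.6, 31.6 and 33, and 28 and 32.1 CPM in homeostatic-like nuclei of the same groups. Its states did not overlap either (1.30 ± 0.11, adjusted p = 1.08e-11), and P522R was highest within the disease-associated-like state. Cyp51 had 20.8 and 27.6 CPM in disease-associated-like nuclei of the P522R libraries, 9.39 and 10.1 CPM in those of M28L and 21 and 26.9 CPM in those of 5xFAD, against 3.86 and 4.85, 9.25 and 7.62, and 7.94 and 10.7 CPM in homeostatic-like nuclei of the same groups. In M28L its states were close, at 9.39 and 10.1 CPM against 9.25 and 7.62 CPM, and they were far apart in P522R (1.33 ± 0.23 over all 6 libraries, adjusted p = 2.08e-05). The homeostatic-like values of Cyp51 rest on few UMIs, given below, and whether its state difference depends on group was not tested.

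Msmo1 had 31.4 and 31 CPM in disease-associated-like nuclei of the P522R libraries, 16.6 and 19.8 CPM in those of M28L and 27.1 and 28.1 CPM in those of 5xFAD, against 15.4 and 16.4, 9.80 and 8.12, and 15.9 and 13.4 CPM in homeostatic-like nuclei of the same groups (0.97 ± 0.15, adjusted p = 3.94e-06). Fdft1, squalene synthase, had 29.9 and 27.3 CPM in disease-associated-like nuclei of the P522R libraries, 14.4 and 20.3 CPM in those of M28L and 25.9 and 27.9 CPM in those of 5xFAD, against 6.75 and 9.71, 9.25 and 15.2, and 9.20 and 12.3 CPM in homeostatic-like nuclei of the same groups (1.16 ± 0.18, adjusted p = 5.00e-06). Both enzymes were higher in the disease-associated-like nuclei of all 6 libraries. Elovl5 had 45.6 and 49.5 CPM in disease-associated-like nuclei of the P522R libraries, 49.9 and 42.2 CPM in those of M28L and 38.3 and 42.6 CPM in those of 5xFAD, against 28.9 and 26.7, 24.5 and 33, and 23.4 and 27.3 CPM in homeostatic-like nuclei of the same groups (0.70 ± 0.12, adjusted p = 1.17e-05). The other genes that were called were the sterol enzymes Sc5d (1.20 ± 0.24), Dhcr7 (1.20 ± 0.29), Hmgcs1 (0.70 ± 0.16) and Fdps (0.65 ± 0.23), the regulators Insig1 (1.18 ± 0.23) and Srebf1 (0.54 ± 0.19), and Acly (0.27 ± 0.09). They were higher in 6 of 6 libraries, except Fdps in 5 of 6. Fasn (-0.04 ± 0.28), Elovl6 (0.06 ± 0.16), Scd2 (0.07 ± 0.09), Scap (0.03 ± 0.11) and Mylip (0.01 ± 0.06) were not called, so the fatty acid genes split into Acaca, Acly and Elovl5, which were called higher, and Fasn, Scd2 and Elovl6, which did not pass the test. With the smaller sub-cluster led by Gpnmb as the only disease-associated-like nuclei, 8 genes were called, where 29.6% of all genes were called in either direction.

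**Figure D3:**
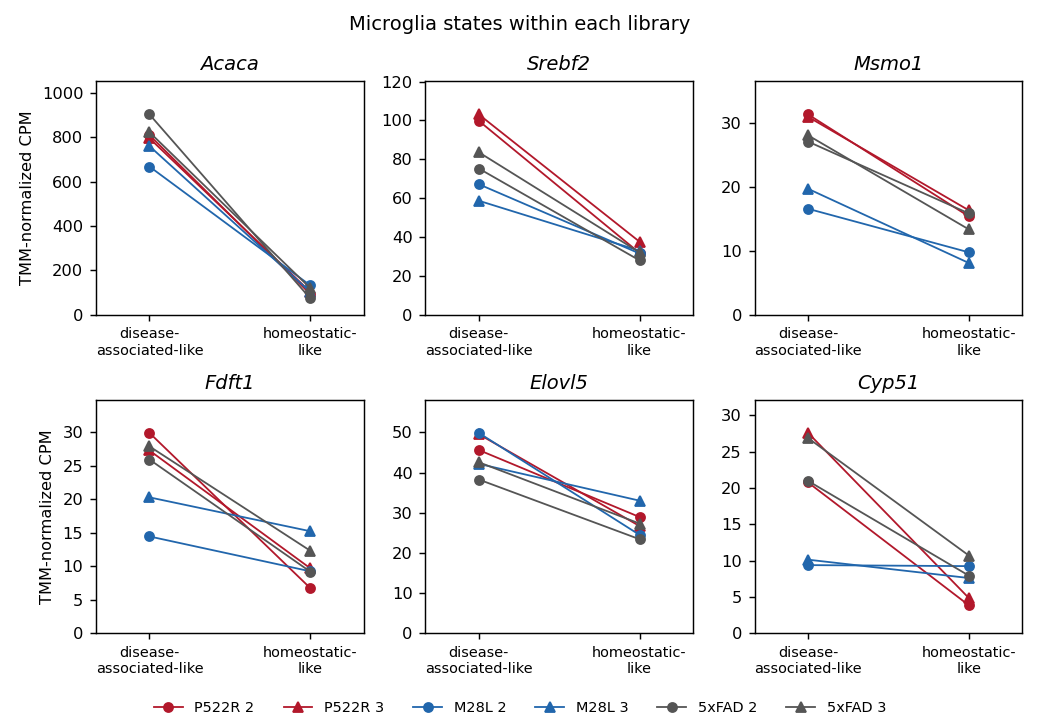
Level (CPM, axes from 0) of 6 genes in disease-associated-like (left) and homeostatic-like nuclei (right) of microglia, with a line per library coloured by group. Every line falls to the right in each panel, and Acaca shows the largest step.

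Within the disease-associated-like state the difference between the variants was called for 2 genes. This fit was added after seeing the data. The state joins 2 sub-clusters whose mix differed between groups. The smaller one, led by Gpnmb, held 159 of 489 and 232 of 808 nuclei of the state in P522R (replicates 2 and 3). It held 27 of 331 and 58 of 456 in M28L and 61 of 265 and 212 of 940 in 5xFAD. The part of this mix in the result was not tested. Of 29 genes tested, 24 had a fold change of P522R over M28L above 0 (median 0.41), as did 49.1% of all genes, and 2 were called higher and 0 lower, where 0.87% and 0.773% of all 11385 genes were. Srebf2 had 98.5 and 103 CPM in the P522R libraries, 66.1 and 59 CPM in the M28L libraries and 73.4 and 84.2 CPM in the 5xFAD libraries, a log2 fold change of P522R over M28L of 0.69 ± 0.15 (adjusted p = 0.0197). Cyp51 had 20.5 and 27.7 CPM in the P522R libraries, 9.24 and 10.2 CPM in the M28L libraries and 20.5 and 27.1 CPM in the 5xFAD libraries, a fold change of 1.32 ± 0.29 (adjusted p = 0.0247). For Srebf2 the P522R libraries were the highest of the 6, whereas for Cyp51 the P522R and 5xFAD libraries overlapped and both M28L libraries were low. The Cyp51 values rest on 41 and 88 UMIs in P522R, 13 and 19 in M28L and 17 and 108 in 5xFAD. The next genes by p were Hmgcs1 (0.88 ± 0.26, adjusted p = 0.109) and Msmo1 (0.76 ± 0.23, adjusted p = 0.125). Both P522R libraries lay above both M28L libraries in 17 of 29 genes (20.4% of all genes) and below them in 2 (19.9%). DESeq2 called 0 genes here, with an adjusted p of 0.0686 for Srebf2 and none given for Cyp51. Srebf2 was no longer called without either P522R library (adjusted p = 0.0914 and 0.195 without replicates 2 and 3) and without M28L replicate 3 (0.183). Cyp51 was no longer called without P522R replicate 3 (adjusted p = 0.322) and without either M28L library (0.0700 and 0.107 without replicates 2 and 3).

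Against 5xFAD, 25 of 29 genes were below 0 in disease-associated-like nuclei of M28L (median -0.34), where 50.1% of all genes were above 0, and 1 was called lower, where 0.58% of all genes were. That gene was Cyp51 (-1.36 ± 0.30, adjusted p = 0.0337), which was no longer called without 5xFAD replicate 3 (adjusted p = 0.451) and without either M28L library (0.0574 and 0.135 without replicates 2 and 3). Both M28L libraries lay below both 5xFAD libraries in 15 of 29 genes (18.9% of all genes). P522R against 5xFAD had 19 of 29 genes above 0 (median 0.05, with 50.9% of all genes above 0) and 0 called (0.0264% of all genes). There Cyp51 was at -0.05 ± 0.24 and Srebf2 at 0.32 ± 0.14 (adjusted p = 0.681).

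In homeostatic-like nuclei 24 genes were tested, of which 9 had a fold change of P522R over M28L above 0 (median -0.12, with 50.2% of all genes above 0) and 0 were called (0.0264% of all genes). Srebf2 had 30.7 and 37.4 CPM in the P522R libraries, 31 and 32.5 CPM in the M28L libraries and 27.4 and 31.6 CPM in the 5xFAD libraries (0.12 ± 0.22), values that all lie within a narrow range. Msmo1 had 14.9 and 16.3 CPM in the P522R libraries, 9.63 and 8.01 CPM in the M28L libraries and 15.6 and 13.2 CPM in the 5xFAD libraries (0.84 ± 0.34, adjusted p = 0.834), with P522R above M28L as in the other state. Cyp51 had 3.73 and 4.83 CPM in the P522R libraries, 9.10 and 7.51 CPM in the M28L libraries and 7.78 and 10.5 CPM in the 5xFAD libraries, here with P522R lowest (-0.91 ± 0.49, adjusted p = 0.899), from 4 and 8 UMIs in P522R, 17 and 15 in M28L and 19 and 20 in 5xFAD. Both P522R libraries lay above both M28L libraries in 4 of 24 genes (17.1% of all genes) and below them in 7 (18.1%). For M28L against 5xFAD the median was -0.08, with 0 called (0.0088% of all genes), and for P522R against 5xFAD it was -0.08, with 0 called (0.0176%). Whether the contrast between variants differs between the 2 states was not tested. Not tested for low counts were Mvd, Hsd17b7 and Scd1 in both states, and Idi1, Sqle, Lss, Dhcr7 and Stard4 in homeostatic-like nuclei.

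**Figure D4:**
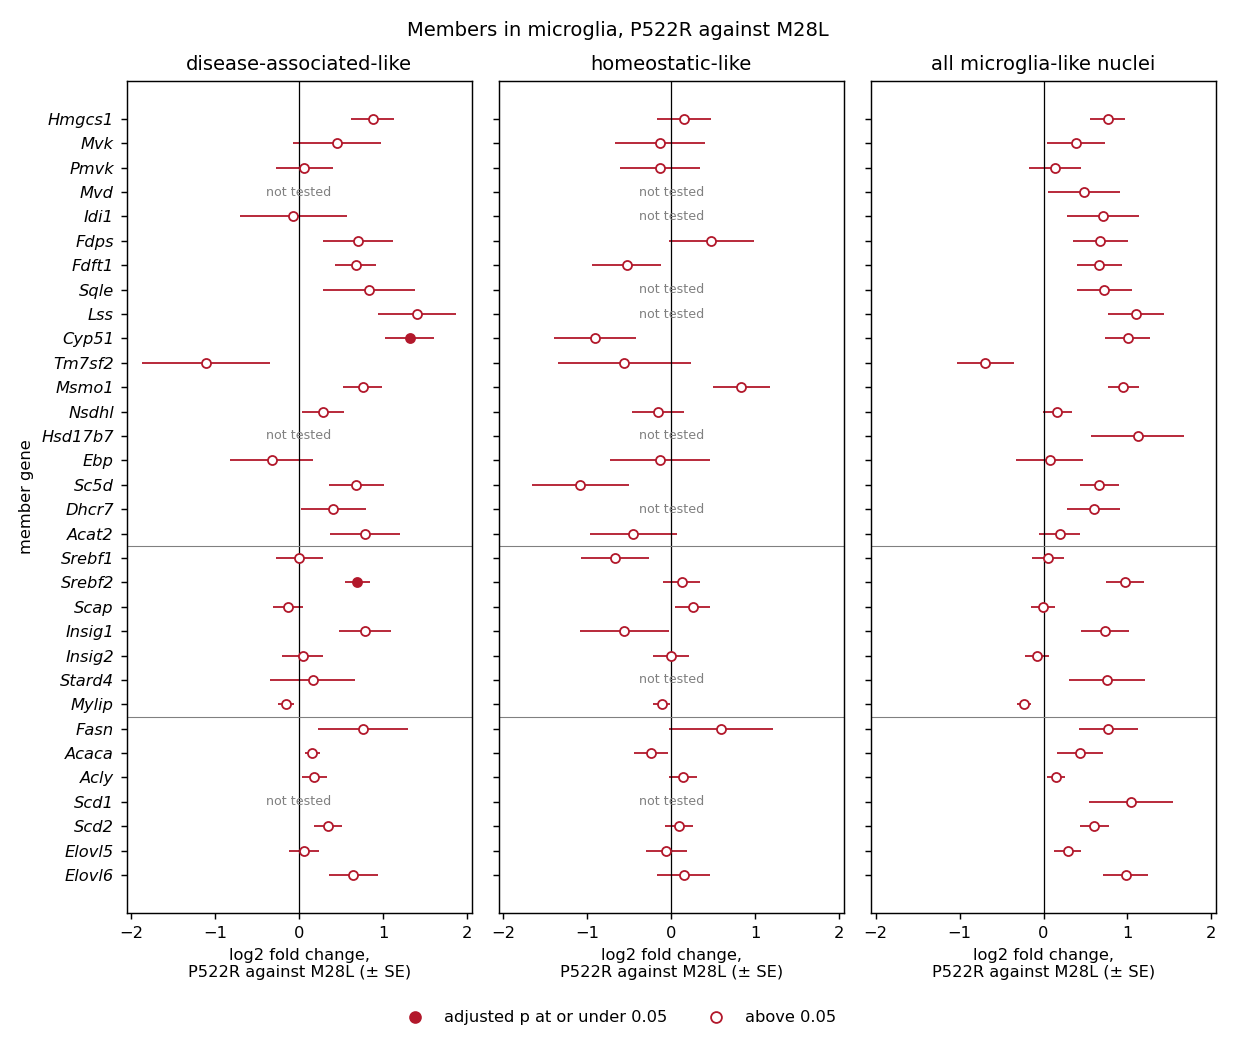
Log2 fold change of P522R over M28L (± SE) for each of the 32 genes, in disease-associated-like nuclei (left), homeostatic-like nuclei (middle) and all microglia (right), with filled points for an adjusted p of at most 0.05. Most points lie right of 0 in the left and right panels, Srebf2 and Cyp51 are filled in the left panel, and points of homeostatic-like nuclei lie on both sides of 0.

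Outside microglia no gene of the list was called between groups in the main edgeR fits. In oligodendrocytes, 0.00631% of all genes were called for P522R against M28L, 0% for M28L against 5xFAD and 0.0126% for P522R against 5xFAD. Cyp51 had 23.7 and 26.3 CPM in the P522R libraries, 17.6 and 16.8 CPM in the M28L libraries and 25.2 and 25.9 CPM in the 5xFAD libraries there. Hmgcs1 had 22.6 and 20.5 CPM in the P522R libraries, 16.7 and 16.9 CPM in the M28L libraries and 22.4 and 25.5 CPM in the 5xFAD libraries. In both enzymes the M28L libraries were the lowest 2 of the 6 (M28L over 5xFAD -0.56 ± 0.10 for Cyp51 and -0.50 ± 0.11 for Hmgcs1, each with an adjusted p of 0.327). Srebf2 had 136 and 133 CPM in the P522R libraries, 115 and 113 CPM in the M28L libraries and 119.5 and 125 CPM in the 5xFAD libraries, the highest values being those of P522R (P522R over M28L 0.23 ± 0.06, adjusted p = 0.557). Over all 32 genes the median of P522R over M28L was 0.10, and both P522R libraries lay above both M28L libraries in 17 genes (20.8% of all genes) and below them in 3 (17.5%). DESeq2, unlike the main edgeR fit, called Cyp51 lower for M28L against 5xFAD (adjusted p = 0.0156). Cyp51 was also called there by edgeR with no filter on low counts and with a replicate term.

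In OPCs 0% of all genes were called in each of the 3 contrasts. Sqle, squalene epoxidase, had 12.7 and 13.6 CPM in the P522R libraries, 9.43 and 10.4 CPM in the M28L libraries and 13.1 and 14.1 CPM in the 5xFAD libraries, lowest in M28L (-0.46 ± 0.16 over 5xFAD, adjusted p = 0.356). Msmo1 had 14.9 and 15.1 CPM in the P522R libraries, 17.8 and 15.4 CPM in the M28L libraries and 17.5 and 21.6 CPM in the 5xFAD libraries, lowest in P522R (-0.38 ± 0.15 over 5xFAD, adjusted p = 0.413). Mvd had 5.17 and 3.46 CPM in the P522R libraries, 4.36 and 4.35 CPM in the M28L libraries and 2.75 and 2.58 CPM in the 5xFAD libraries, with both P522R libraries above both of 5xFAD (0.70 ± 0.30, adjusted p = 0.416). The median of P522R over M28L was -0.06, with 6 genes above (17.4% of all genes) and 10 below (19.3%) without overlap.

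In astrocytes the contrast between variants had the opposite sign to that in microglia for most genes. The fold change of P522R over M28L was below 0 for 22 of 32 genes (median -0.20), where 51.2% of all genes were above 0, and both P522R libraries lay below both M28L libraries in 18 (22.3% of all genes) and above them in 4 (16.7%). None was called for P522R against M28L (0% of all genes, with 1 higher and 8 lower at an unadjusted p of at most 0.05 in edgeR, as were 4.68% and 3.95% of all genes), M28L against 5xFAD (0%) or P522R against 5xFAD (0.0218%). Elovl6 had 106 and 77.4 CPM in the P522R libraries, 132 and 162 CPM in the M28L libraries and 152 and 139.9 CPM in the 5xFAD libraries. Fdft1 had 82.5 and 68.8 CPM in the P522R libraries, 112 and 103 CPM in the M28L libraries and 108 and 100.4 CPM in the 5xFAD libraries. Acly had 45.1 and 38 CPM in the P522R libraries, 60.9 and 62.3 CPM in the M28L libraries and 62.3 and 55.5 CPM in the 5xFAD libraries. In all 3 genes the P522R libraries were the lowest 2 of the 6. Fold changes of P522R over M28L were -0.61 ± 0.16, -0.45 ± 0.12 and -0.51 ± 0.14, each with an adjusted p of 0.529, and that of Elovl6 over 5xFAD was -0.60 ± 0.15 (adjusted p = 0.275). The P522R libraries held 342 and 161 astrocytes. The 12 oligodendrocyte markers summed to 1269 and 1139.6 CPM in astrocytes of the P522R libraries, 674.5 and 832.1 CPM in those of M28L and 626.1 and 584.9 CPM in those of 5xFAD. The 12 astrocyte markers summed to 27356 and 25681 CPM in P522R, 29741 and 29562 CPM in M28L and 27739.9 and 28933 CPM in 5xFAD, so the P522R libraries were lowest in these and highest in oligodendrocyte markers. The part of these levels in the result was not tested. In Xist-positive nuclei alone the direction turned for Fdft1 (0.15) and Acly (0.13).

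The difference of the contrast between microglia and each other type was tested directly. For P522R over M28L, the difference of microglia minus oligodendrocytes was called for 1 of 32 genes, where 2.01% of all genes were called. Microglia minus OPCs gave 2 (0.849% of all genes) and microglia minus astrocytes 3 (0.591%). For P522R over 5xFAD the numbers were 0 against oligodendrocytes (0.201%), 0 against OPCs (0.119%) and 2 against astrocytes (0.478%). For M28L over 5xFAD none was called in any pair (0%, 0% and 0%), and 0 of all genes passed. Srebf2 differed from oligodendrocytes by 0.70 ± 0.17 (adjusted p = 0.0450), from OPCs by 0.85 ± 0.18 (adjusted p = 0.0359) and from astrocytes by 0.90 ± 0.18 (adjusted p = 0.0348). In astrocytes it had 174 and 181 CPM in the P522R libraries, 175 and 174 CPM in the M28L libraries and 171 and 200.3 CPM in the 5xFAD libraries, and in OPCs 65.1 and 69.3 CPM in the P522R libraries, 68.1 and 59.1 CPM in the M28L libraries and 56.5 and 60.7 CPM in the 5xFAD libraries. Msmo1 differed from OPCs by 1.06 ± 0.19 (adjusted p = 0.0219) and from astrocytes by 1.24 ± 0.17 (adjusted p = 0.00590), where it had 128 and 145 CPM in the P522R libraries, 163 and 181 CPM in the M28L libraries and 173 and 209 CPM in the 5xFAD libraries. Elovl6 differed from astrocytes by 1.59 ± 0.32 (adjusted p = 0.0331). Without the sub-cluster led by oligodendrocyte genes, only Msmo1 passed, against OPCs and against astrocytes for P522R over M28L. In that subset the difference of Srebf2 was 0.58 against oligodendrocytes (adjusted p = 0.219), 0.75 against OPCs (adjusted p = 0.128) and 0.74 against astrocytes (adjusted p = 0.0893), and that of Elovl6 against astrocytes was 1.00 (adjusted p = 0.235). Without either M28L library or P522R replicate 3 no gene passed for P522R over M28L, while the difference of Srebf2 stayed between 0.56 and 0.95 with each library left out and that of Elovl6 was 0.97 without P522R replicate 3. For P522R over 5xFAD, that of Msmo1 against astrocytes was not called in any of the 6 fits that left out 1 library (adjusted p from 0.0599 to 0.409) and that of Elovl6 only without P522R replicate 2.

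The neighbouring parts of lipid metabolism gave no calls in microglia between P522R and M28L, where 0.00725% of all genes were called. Of all genes, 49.9% had a fold change above 0. Of 10 genes of the isoprenoid branch, 4 had a fold change above 0 (median -0.01), for example Nus1, a subunit of the dolichol-making transferase, with 32.5 and 30.6 CPM in the P522R libraries, 38.7 and 37.6 CPM in the M28L libraries and 33.9 and 37.3 CPM in the 5xFAD libraries. Fnta, a farnesyltransferase subunit, had 43 and 39.5 CPM in the P522R libraries, 36.1 and 32.4 CPM in the M28L libraries and 35.2 and 34.8 CPM in the 5xFAD libraries. Of 13 genes tested for SREBP maturation and degradation, 4 were above 0 (median -0.10), among them Erlin1 (-0.28) and Fbxw7 (-0.20), which act in degradation. Both lists thus had medians near 0. The direction of the synthesis genes was known when genes and lists were chosen, so a contrast with these lists is not a test.

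Of 14 genes of sterol efflux, esterification and trafficking, 9 were above 0 (median 0.12). Abca1, the exporter of cholesterol to lipoproteins, had 406 and 356 CPM in the P522R libraries, 613 and 555 CPM in the M28L libraries and 573 and 431 CPM in the 5xFAD libraries, lowest in P522R (-0.62 ± 0.15, adjusted p = 0.177). Vldlr, a lipoprotein receptor, had 13 and 29.8 CPM in the P522R libraries, 8.75 and 9.68 CPM in the M28L libraries and 11.6 and 10.8 CPM in the 5xFAD libraries (1.25 ± 0.36, adjusted p = 0.221), with P522R replicate 3 far above the rest. Of 20 genes of fatty acid activation, elongation, desaturation and storage, 16 were above 0 (median 0.19). Fabp5, a fatty acid carrier, had 16.5 and 18.2 CPM in the P522R libraries, 6.78 and 6.64 CPM in the M28L libraries and 11.3 and 17.1 CPM in the 5xFAD libraries (1.37 ± 0.25, adjusted p = 0.161). Elovl7, an elongase, had 26.4 and 62.8 CPM in the P522R libraries, 14 and 15.6 CPM in the M28L libraries and 10.8 and 21.2 CPM in the 5xFAD libraries (1.62 ± 0.42, adjusted p = 0.187). Fabp5 was close between the P522R replicates, while Elovl7, like Vldlr, Elovl6 and Scd2, was highest in the P522R library that had the most oligodendrocyte-marker RNA. That library, P522R replicate 3, was also the only library made with Cell Ranger 5.0.1, and the part of the version was not tested.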

How the data were processed

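Single-nucleus 3′ libraries (10x Genomics v3 kit, per the labels' protocols) targeted 10000 nuclei each, 5000 from male and 5000 from female mice. Each library has a matrix of whole-number UMI counts, deposited without normalization. Cell Ranger 6.1.2 and the build mm10 are named in the submitters' processing notes. Per the file headers, version 5.0.1 made P522R replicate 3 and version 6.1.2 the other 5. Whether intron reads were counted is not given in the sources used here.

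Kept were nuclei with 500 UMIs and 300 genes or more and no more than 5% mitochondrial UMIs. Doublets were called with Scrublet through scanpy 1.11.5 (threshold 0.3109, the median of 4 automatic thresholds). The other 2 libraries, both of P522R, had under 0.5% called automatically (0.0099% and 0.01%, at thresholds of 0.7313 and 0.7321). The common threshold, used for all 6 libraries, called 4.68% and 3.67% of nuclei in them and 3.70% to 4.39% in the others. Nuclei were clustered on 2000 variable genes without the 32 genes, 30 components, 20 neighbours and Leiden resolution 1 (leidenalg 0.10.2), which gave 33 clusters. A cluster was named if at least 3 markers and a share of 0.5 of a list (0.25 for neurons) were higher in it than elsewhere, and 6 stayed unnamed. The share and the doublet bound of 40% were set after looking at the clusters. Microglia were clustered again (1000 genes, 15 components, resolution 0.5), which gave 7 sub-clusters, 2 of them unnamed. The bounds for states, 3 markers and a share of 0.3, were also set after looking.

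UMIs were summed per library and type and tested in R 4.3.3 by the two-sided quasi-likelihood test of edgeR 4.0.16, with TMM scaling, low counts removed by filterByExpr at a minimum of 10, and 1 fit for all 6 libraries. Types and states were compared with library as a term, over 24 sums for types. The script was tested on simulated counts. All 32 genes passed the filter in each type. Values per library are given for called genes, for those with the smallest unadjusted p (10 and 4 in microglia, 3 in each other type, 6 for states), for up to 4 leading genes per type, and for 2 genes of each neighbouring list. The genes, lists, rules and tests were chosen with earlier results of these data known. Alternatives were DESeq2 1.42.0, RLE size factors, other count filters, fits of 4 libraries, a replicate term, a minimum of 1000 UMIs, doublets kept, the 32 genes allowed in clustering, nuclei of 1 sex (Xist or 4 Y-linked genes), and leaving out each library.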

Additional observations from a re-analysis of the deposited data

Results flagged for a closer look

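The contrast between groups differed between microglia and another cell type, by a test of the difference itself, in 8 cases. The share of all genes with such a difference was 2.01% against oligodendrocytes, 0.849% against OPCs and 0.591% against astrocytes for P522R over M28L, and 0.478% against astrocytes for P522R over 5xFAD, so 1 of 32 genes against oligodendrocytes was close to the share of all genes. For P522R over M28L the log2 fold change of Srebf2 was higher in microglia than in oligodendrocytes by 0.70, than in OPCs by 0.85 and than in astrocytes by 0.90. That of Msmo1 was higher in microglia than in OPCs by 1.06 and than in astrocytes by 1.24, and that of Elovl6 was higher than in astrocytes by 1.59. For P522R over 5xFAD the difference between microglia and astrocytes was 1.50 for Elovl6 and 0.76 for Msmo1. The Msmo1 difference over 5xFAD was called in 0 of 6 fits that left out 1 library (adjusted p from 0.0599 to 0.409), and the Elovl6 one in 1 of 6, with 0.87 without P522R replicate 3. Over M28L, Elovl6 was called in 2 of 6 such fits, with 0.97 without P522R replicate 3, and neither Srebf2 nor Msmo1 was called without either M28L library or without P522R replicate 3. Both P522R libraries were higher in microglia and lower in astrocytes than both M28L libraries for Elovl6 and Msmo1. The oligodendrocyte-marker RNA of P522R microglia, given with the microglial results, moved with these differences, and without the sub-cluster led by oligodendrocyte genes only Msmo1 was called, against OPCs and astrocytes for P522R over M28L.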

How the results depend on the processing

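Microglial values rest on 3802537 to 7800773 UMIs per library and astrocyte values on 1278577 to 8363526, which limits genes at a few CPM. Of the 464 other values computed for counts of called genes, 396 were equal to the reported count or within 1.5 times it. Counts of 0 that stayed at 0 are among these. Of 672 values for single genes 595 kept their direction and their side of the threshold, 4 turned, 24 gained a call and 49 lost it. The lost calls were all between groups or of the difference of a group contrast between cell types. No call between cell types or between states was lost, so these totals do not measure how stable the group results are. The cause of each change was not tested. The share of all genes called under the same setting stands in brackets. In microglia, P522R over M28L had 0 called genes, and 1 with DESeq2 (1.53%), 8 with no filter on low counts (4.68%), 1 in a fit of 4 libraries (0.524%) and 1 in Y-positive nuclei (3.03%). P522R over 5xFAD had 0, and 3 with no filter (4.79%) and 1 in Y-positive nuclei (2.01%). The median of P522R over M28L (0.63) was 0.38 in Xist-positive nuclei, 0.43 in Y-positive nuclei and 0.42 without the oligodendrocyte-gene sub-cluster. That of M28L over 5xFAD (-0.31) was -0.13 with a minimum count of 50 and -0.10 in Xist-positive nuclei, and that of P522R over 5xFAD (0.25) was 0.062 in Y-positive nuclei. Mylip turned to 0.013 for P522R over M28L in Y-positive microglia, Mvd to -0.031 for P522R over 5xFAD in Y-positive OPCs, and Fdft1 to 0.15 and Acly to 0.13 for P522R over M28L in Xist-positive astrocytes.

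In oligodendrocytes M28L over 5xFAD had 0 called genes, and 1 with DESeq2 (0.776%) and 2 with no filter (2.01%), and P522R over M28L had 1 with no filter (0.654%). In astrocytes P522R over M28L had 2 with no filter (2.01%) and 1 in Y-positive nuclei (0.187%), and P522R over 5xFAD had 2 with no filter (3.32%). In disease-associated-like nuclei the 2 calls of P522R over M28L became 0 with DESeq2 (0.878%), 1 in Xist-positive (1.59%) and 0 in Y-positive nuclei (0.466%). The 1 call of M28L over 5xFAD there became 0 with DESeq2 (0.606%), 0 in a fit of 4 libraries (0.701%) and 0 in Y-positive nuclei (0.504%). For the difference between microglia and other types, no filter gave 6 called genes against oligodendrocytes (3.25%), 9 against OPCs (2.72%) and 10 against astrocytes (2.82%) for P522R over M28L, and 1 (2.41%), 1 (2.08%) and 7 (2.47%) for P522R over 5xFAD. RLE size factors gave 3 against oligodendrocytes for P522R over M28L (2.63%). Leaving out the oligodendrocyte-gene sub-cluster gave 0 (0.146%), 1 (0.165%) and 1 (0.254%) for P522R over M28L and 0 against astrocytes for P522R over 5xFAD (0.324%). The Gpnmb-led sub-cluster alone gave 8 called genes between states (29.6%), against 13.

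With each library left out in turn, called genes ranged from 0 to 2 in microglia for P522R over M28L (0% to 3.01% of all genes) and from 0 to 2 for P522R over 5xFAD (0% to 2.9%). In disease-associated-like nuclei they ranged from 0 to 2 for P522R over M28L (0.626% to 1.72%) and from 0 to 1 for M28L over 5xFAD (0.501% to 1.67%). For the difference of microglia from oligodendrocytes, OPCs and astrocytes they ranged from 0 to 4, 0 to 6 and 0 to 6 for P522R over M28L (up to 4.85%, 3.7% and 4.55%), and from 0 to 1, 0 to 1 and 0 to 2 for P522R over 5xFAD (up to 3.98%, 2.97% and 4.11%). Microglial medians ranged from 0.39 (without P522R replicate 3) to 0.71 for P522R over M28L, from -0.46 to -0.15 for M28L over 5xFAD (without 5xFAD replicates 2 and 3) and from 0.10 to 0.51 for P522R over 5xFAD (likewise). Samples with the same replicate number deviated together (correlations of 0.112 to 0.443 across genes), but each contrast has only 2 such pairs and no label says what the number marks. With the replicate block, microglia had 3 called genes for P522R over M28L (3.43%) and 1 for P522R over 5xFAD (3.95%), and oligodendrocytes had 3 for M28L over 5xFAD (7.36%) and 1 for P522R over M28L (1.51%).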

Other observations

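Genes that handle finished lipid also differed between microglial states, and not all in 1 direction. Unlike the synthesis genes, these and the other listed genes below were not left out of the sub-clustering that cut the states. Their p-values thus describe this split and are not an independent test of it. Of 13 genes tested for sterol efflux, esterification and trafficking, 6 were higher and 3 lower in disease-associated-like than in homeostatic-like nuclei. Abca1 and Fabp5 were picked for a small p-value between P522R and M28L in the same microglia. The other genes named here were chosen after their values were seen. The higher ones were Scarb1, a lipoprotein receptor (1.36 ± 0.09), Lipa, the lysosomal acid lipase (1.14 ± 0.12), Soat1, which esterifies cholesterol (0.95 ± 0.09), Osbpl8 (0.90 ± 0.06), Abcg1 (0.38 ± 0.09) and Npc2 (0.30 ± 0.08). The lower ones were the exporter Abca1 (-0.76 ± 0.07), Stard3 (-0.33 ± 0.08) and Cyp27a1, a sterol hydroxylase (-0.30 ± 0.09). Abca1 was thus lower in the disease-associated-like nuclei of all 6 libraries while Srebf2 was higher in all 6.

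Of 18 genes tested for fatty acid activation, elongation, desaturation and storage, 6 were higher and 2 lower in that state. They were led by Fabp5 (2.20 ± 0.27), the lipid droplet protein Plin2 (1.57 ± 0.15) and Hacd2, a dehydratase of fatty acid elongation (1.36 ± 0.07), whereas Fads1, a desaturase (-0.57 ± 0.15), and Acsl1, which activates fatty acids (-0.42 ± 0.09), were lower. The isoprenoid branch had 2 of 9 higher and 1 lower, and SREBP maturation and degradation 2 of 13 higher and 1 lower. All are log2 fold changes ± SE over 6 libraries with adjusted p at most 0.05 by edgeR. The share of all genes called was 16.2% higher and 15.7% lower.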
